A study of Arabidopsis thaliana with 12 samples.

Results

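LATERAL SUPPRESSOR (LAS, locus AT1G55580 on chromosome 1 of Arabidopsis thaliana, also named SCARECROW-LIKE 18) encodes a transcriptional regulator of the GRAS family. It was taken here as the 1 array probe, number 4053, whose single gene in the array's annotation is LAS, out of 692 single-gene probes and 3439 probes in all. The gene was selected on its measured intensities at the 2 ages, that is, with its level in these 12 samples already known, so its levels and its difference between the ages are given as a description, without a test. Coordinates are left out because no source used here names the array's genome build.

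GRAS proteins are plant regulators named after GAI, RGA and SCARECROW, which act in gibberellin signalling and in root patterning. LAS is known from mutants that fail to form side shoots in the axils of leaves during vegetative growth, as do mutants of its tomato counterpart Lateral suppressor. Its transcript is known from narrow bands of cells between the shoot meristem and young leaf primordia, where axillary meristems, the starting point of side shoots, are set up. It acts there alongside the RAX and CUC transcription factors and upstream of REVOLUTA.

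Total RNA of wild-type (WT) Columbia 0 plants, the ecotype most laboratories use, was measured on arrays in 6 samples of plants aged 4 weeks and 6 samples of plants aged 2 weeks. The labels name no organ, growth condition or number of plants per sample, and do not say that the 6 samples of an age come from separate plants, so the spread and any p-value measure only the difference between these samples, which may be technical. The deposited values are linear intensities with a top of 100 in each sample. No source used here states how they were scaled, background-corrected or centred. Nor does any say whether the 12 samples were read on separate arrays, or as channels or repeated spots of fewer. Below, an array means the set of values of a sample. The array median was 0.440, 0.445, 0.390, 0.397, 0.395 and 0.408 in 4-week samples 1 to 6, and 0.0946, 0.0989, 0.116, 0.116, 0.107 and 0.115 in 2-week samples 1 to 6. The arrays were therefore quantile normalized, which gives each the same distribution, and both scales are reported.

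The LAS probe was much brighter at 4 weeks. Its deposited intensity was 1.95, 2.17, 2.13, 2.51, 2.17 and 1.98 in 4-week samples 1 to 6, against 0.0810, 0.0772, 0.111, 0.115, 0.133 and 0.0824 in 2-week samples 1 to 6. All 6 values at 4 weeks lay above all 6 at 2 weeks, and the lowest 4-week value was 14.6 times the highest 2-week value. Most of the array was brighter at 4 weeks on this scale. Limma's test, given below, called 75.7% of the 2966 probes tested on it higher. The mean was 2.15 ± 0.20 at 4 weeks and 0.10 ± 0.023 at 2 weeks (SD, n = 6 each). LAS was above 0 on all 12 arrays, so no value rests on a floor. More cells with the transcript and more transcript per cell cannot be told apart in such bulk RNA. The probe is named by the annotation alone. Its sequence was not available here, so whether it detects only LAS was not checked.

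The gap was smaller, and still without overlap, once the arrays had been brought to a common distribution. The normalized intensity was 1.69, 1.96, 2.16, 2.61, 1.86 and 1.59 in 4-week samples 1 to 6, against 0.234, 0.223, 0.253, 0.260, 0.306 and 0.205 in 2-week samples 1 to 6. Sample 6 was the lowest of its age at both ages, while the highest was sample 4 at 4 weeks and sample 5 at 2 weeks. The mean was 1.98 ± 0.367 at 4 weeks and 0.247 ± 0.0351 at 2 weeks (SD, n = 6 each), a log2 difference of 3.0 (SE 0.14) or 7.98-fold. The lowest 4-week value was 5.22 times the highest 2-week value. Such a lack of overlap with 4 weeks on top was found for 24.0% of the 2961 tested probes, so it does not by itself set LAS apart.

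**Figure D1:**
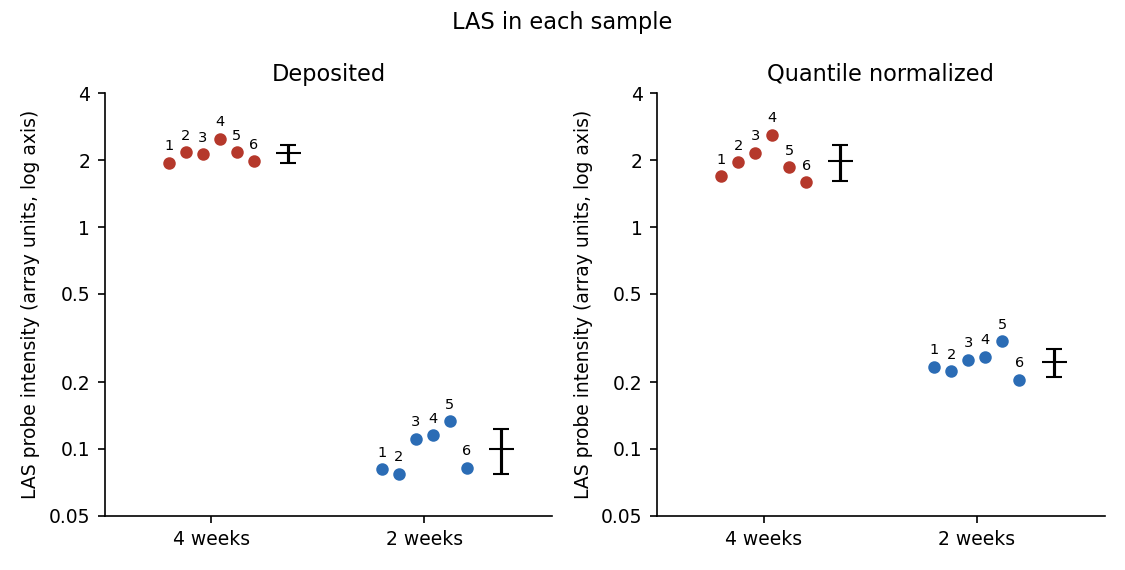
Intensity of the LAS probe in each sample on a log axis, as deposited (left) and after quantile normalization (right). Points are samples labelled by replicate number, and the black mark beside each age is the mean ± SD (n = 6). The 6 samples at 4 weeks lie between 1.95 and 2.51 as deposited and between 1.59 and 2.61 normalized, all above the 6 samples at 2 weeks.

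The rank of the probe within its own array does not depend on any scaling of whole arrays. At 4 weeks, 201, 167, 149, 124, 178 and 217 of the 3439 probes were brighter than LAS in samples 1 to 6, against 1847, 1905, 1752, 1721, 1514 and 2004 at 2 weeks. LAS thus lay above 95.0% ± 0.987 of the probes at 4 weeks and above 47.9% ± 4.95 at 2 weeks (SD, n = 6 each). With all probes counted, it stood near the top of the array in every 4-week sample and near the middle in the 2-week samples. Probes at 0 made up 13.2% of the array at 4 weeks and 17.7% at 2 weeks on average. Among probes above 0 only, LAS lay above 94.2% at 4 weeks and 36.7% at 2 weeks. Its 2-week place thus depends on whether probes at 0 are counted. Relative to the median of the array, it was 4.42 to 6.31 times brighter at 4 weeks and stood at 0.714 to 1.25 times the median at 2 weeks. Its share of the summed intensity of the array was 0.0654% ± 0.00727 at 4 weeks and 0.00344% ± 0.000762 at 2 weeks. Ranks compare probes within an array, and probes can differ in how strongly they bind their target, so a rank is not a transcript number.

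Few probes moved as far up the order, though LAS was chosen with its levels at both ages already known. The mean rank of LAS was 47.0 percentile points higher at 4 weeks, and 101 of the 3439 probes, or 2.94%, climbed further. Among the 2332 probes above 0 on all 12 arrays, 30 climbed further. Of 397 other probes within 5 percentile points of LAS at 2 weeks, 8 stood at or above it at 4 weeks, and the median of the 397 at 4 weeks was the 50.3 percentile. AT1G10310 was the 1 single-gene probe of these 8, at the 95.9 percentile at 4 weeks and the 52.2 percentile at 2 weeks. Of the 57 other probes within 1 percentile point of LAS at 4 weeks, 2 stood at or below it at 2 weeks, and their median then was the 90.1 percentile. Most probes as bright as LAS in the older plants were thus already bright in the younger ones.

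**Figure D2:**
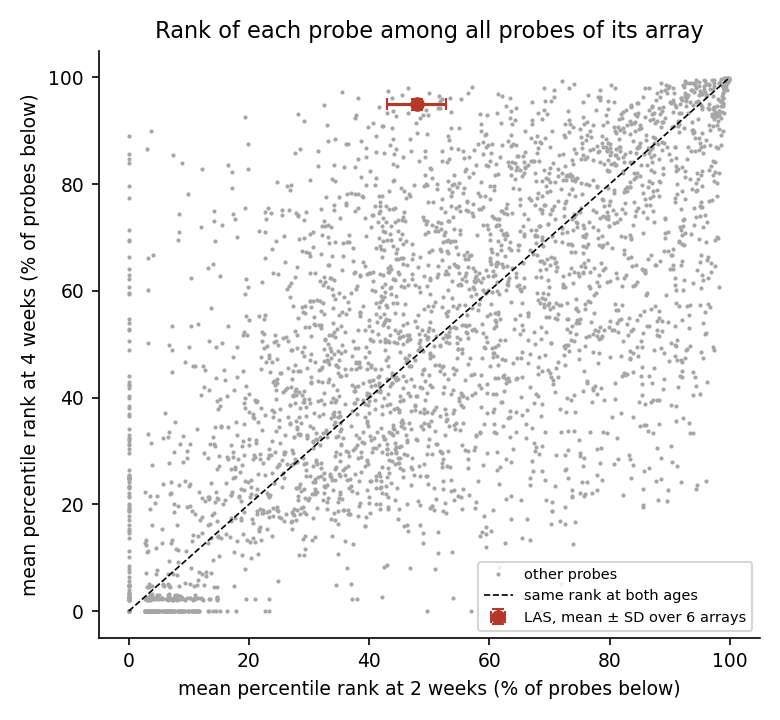
Mean percentile rank of each of the 3439 probes among the probes of its array at 4 weeks (vertical axis) and at 2 weeks (horizontal axis), on the deposited intensities. LAS (red, with SD over 6 arrays) lies at 95.0 at 4 weeks and 47.9 at 2 weeks, far above the dashed line of equal rank.

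The size of the LAS difference depended on the scaling, and its direction did not. Over samples of the same replicate number, the normalized intensity at 4 weeks was 7.23, 8.78, 8.56, 10.0, 6.09 and 7.80 times that at 2 weeks for numbers 1 to 6. In the deposited values these ratios were 24.0, 28.2, 19.2, 21.7, 16.3 and 24.0. Number 5, with the highest 2-week level, had the smallest ratio on both scales. The log2 difference was 4.45 (SE 0.16) as deposited and 2.75 (SE 0.16) with each array centred on its median. The median log2 difference of all tested probes was 1.82 as deposited, 0.14 under median centring and 0.10 after quantile normalization. Relative to that median, the LAS difference was 2.63 as deposited, 2.61 under median centring and 2.90 after quantile normalization. LAS thus differed by more than the median tested probe under all 3 scalings. Median centring shifts all values of an array above the floor by the same log2 amount. Its margin over the median and that of the deposited values are therefore nearly the same measure, not separate checks. Medians near 0 follow from the normalizations themselves.

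**Figure D3:**
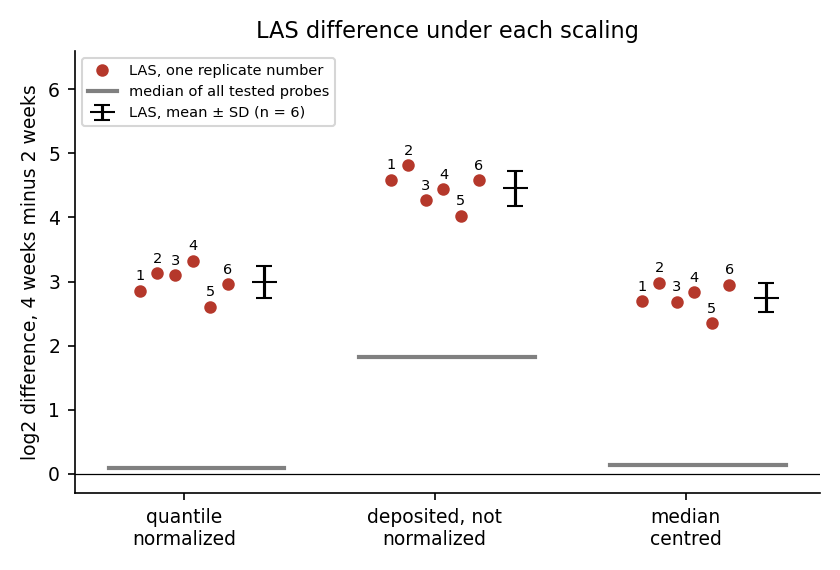
Log2 difference of LAS, 4 weeks minus 2 weeks, for each replicate number (red points) under 3 scalings, with the mean ± SD (black, n = 6) and the median over all tested probes (grey line). All 18 points lie above 2, between 2.35 and 4.82, and above the grey line of their scaling.

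The whole comparison was one in which most of the array changed. Limma's test, with Benjamini-Hochberg adjustment over all tested probes and a threshold of 0.05, called 994 of the 2961 higher at 4 weeks (33.6%) and 920 lower (31.1%). In the deposited values the split was 2245 higher (75.7%) and 327 lower (11.0%). After normalization 123 of the 2961 probes, or 4.15%, had a larger log2 difference than LAS, and 26 of the 593 tested genes with a single-gene probe did. In the deposited values 214 probes (7.22%) and 45 such genes had a larger one, and under median centring 240 (8.09%) and 52. Of the 26, 20 were at the floor in at least 1 sample, which makes the size of their difference depend on where the floor is set. Among the 454 single-gene features measured above the floor on all 12 arrays, 6 had a larger difference. These were AT1G06510 at 3.53, AT2G46850 at 3.15, AT4G20300 at 3.12, AT1G10310 at 3.08, AT1G16080 at 3.02 and AT5G05400 at 3.0. That of LAS was 3.0 (SE 0.14), and the last 4 of these lay within 1 such SE above it. Just below LAS came AT4G31530 at 2.97 (SE 0.25), AT1G73470 at 2.97 (SE 0.17) and AT3G52070 at 2.95 (SE 0.16), also within 1 SE of LAS. Next above LAS in the order of all 593, AT4G37420 differed by 3.0 (SE 0.56), and 3 of its 2-week values were at the floor.

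The order around LAS was not fixed. The log2 difference of AT1G16080 was 3.09 as deposited and 1.39 under median centring, and that of AT4G31530 was 2.54 and 0.84, where LAS stood at 4.45 and 2.75. In the deposited values 7 of the 454 had a larger difference than LAS, and under median centring 8 did.

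The spread of LAS among samples of an age was small beside its difference between the ages. The SD of its normalized log2 intensity was 0.26 at 4 weeks and 0.20 at 2 weeks (n = 6 each), where the median SD of the 2293 probes and genes above the floor on all arrays was 0.28 and 0.29. Of 134 probes within 0.5 log2 units of LAS at 4 weeks, 57.5% had a smaller SD, and of 743 such probes at 2 weeks, 10.9% did. LAS was thus of ordinary spread for its level at 4 weeks and among the steadier probes of its level at 2 weeks. In the deposited values the spread lay the other way, with a coefficient of variation of 9.31% at 4 weeks and 23.1% at 2 weeks. Samples with adjacent numbers (1 and 2, 3 and 4, 5 and 6) differed in LAS by 0.21 to 0.27 log2 units at 4 weeks and by 0.039 to 0.58 at 2 weeks, and the other pairs of an age by 0.075 to 0.71 and 0.11 to 0.45.

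The partners of LAS could not be followed on single-gene probes. Of 100 loci in 6 lists (31 of the GRAS family, 21 of axillary meristems and organ boundaries, 9 of shoot meristem maintenance, 12 of bud outgrowth and strigolactone, 17 of gibberellin synthesis and perception, and 11 of the floral transition), LAS was the 1 with such a probe. The RAX, CUC and REVOLUTA genes, the meristem regulators STM and WUS, the branching repressor BRC1 and the DELLA genes GAI and RGA have none in the annotation used here. Whether the other genes of the axillary meristem program moved with LAS was therefore not analysed here. Of 25 marker genes for leaf mesophyll, root, flower, seed and senescence, 2 had a single-gene probe, both for leaf mesophyll, and none of the root, flower, seed or senescence markers did. PSAN, which belongs to photosystem I, had normalized intensities of 2.54 ± 0.390 at 4 weeks and 11.4 ± 2.82 at 2 weeks (SD, n = 6 each) and fell, with a limma adjusted p of 2.22e-07. PRK, the phosphoribulokinase of the Calvin cycle, had 0.701 ± 0.0632 at 4 weeks and 4.08 ± 0.367 at 2 weeks and fell as well, with a limma adjusted p of 7.23e-10. The 2 leaf markers measured, of 6 listed, thus went the opposite way to LAS between the ages. Limma called 31.1% of all 2961 tested probes lower at 4 weeks, so this does not set the 2 apart. Another of the 6, RCA, is on a probe with several genes in the annotation and was not followed. The part of organ composition in the LAS difference was not tested.

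Genes with the most similar pattern were sought among the 453 other genes with a single-gene probe above the floor on all 12 arrays, by Pearson's r with LAS over the 12 normalized log2 values. AT1G16080 came first at r = 0.992, with a normalized intensity of 12.5 ± 1.10 at 4 weeks and 1.55 ± 0.246 at 2 weeks (SD, n = 6 each). AT1G10310 followed at r = 0.988, with 2.34 ± 0.314 at 4 weeks and 0.282 ± 0.0706 at 2 weeks. AT1G73470 had r = 0.986, AT1G01730 r = 0.984 and AT4G24930 r = 0.983. These coefficients describe the shape and not the size of a difference, since AT4G24930 differed by 0.97 log2 units between the ages and the other 4 by 2.90 to 3.08. The genes share the arrays and their age difference with LAS, and 12.1% of all 2292 other probes and genes compared had r above 0.9 and 18.7% had r below -0.9. Of the 5, 4 were also among the first 5 under median centring and 2 in the deposited values. Most opposed were PRK at r = -0.992, AT5G19210 at -0.991 and AT4G24910 at -0.990.

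Taking out the mean of each age leaves the smaller movements from sample to sample. In these deviations, AT4G22650 was most like LAS at r = 0.798 over 12 samples, followed by AT5G11650 at 0.773, AT2G17670 at 0.771, AT3G27550 at 0.763 and AT1G06730 at 0.756. LAS and all 5 were highest in sample 4 at 4 weeks, and LAS was highest in sample 5 at 2 weeks, as AT3G27550 was. None of the 5 was among the first 5 in the deposited values and 1 was under median centring, so this order rests on the scaling. Over all 2292 the coefficients ran from -0.827 to 0.868 with a median of 0.052.

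**Figure D4:**
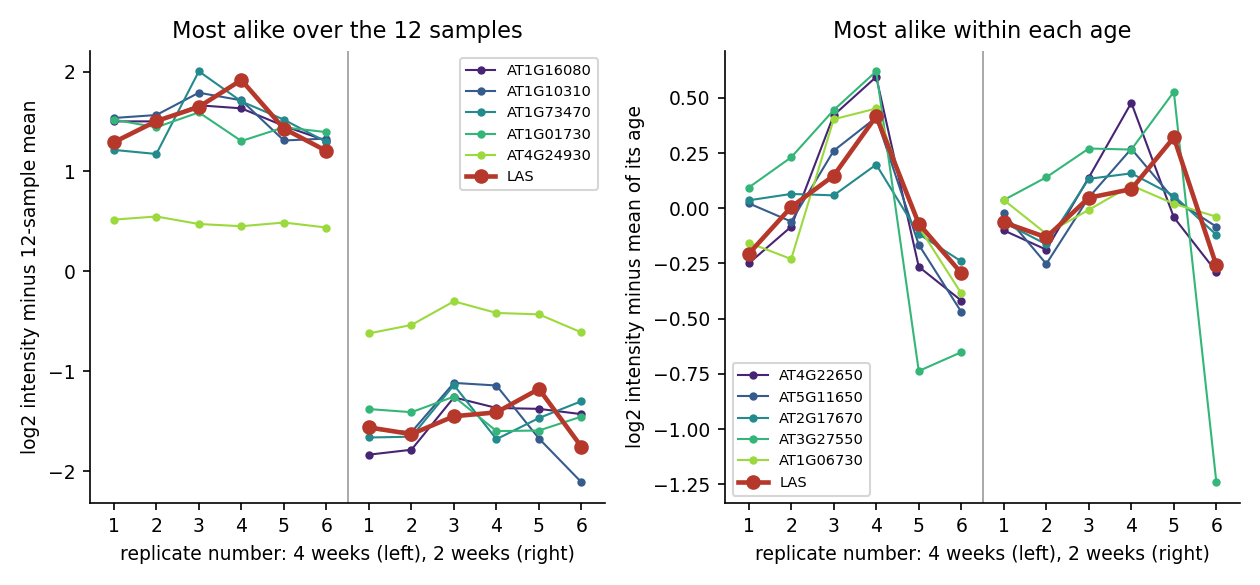
Normalized log2 intensity of LAS (red) and of the 5 genes most like it over the 12 samples, each less its 12-sample mean (left), and most like it in deviations from the mean of each age (right). Lines join the samples of a gene to guide the eye and the sample numbers have no order; on the left AT4G24930 spans 0.97 log2 units between the ages and LAS 3.0.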

How the data were processed

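The deposited table holds 1 linear intensity per probe and sample, 12 samples in all, as judged from its values; no source used here records how the authors quantified or scaled these deposited intensities. Every column maps to a sample. LAS was matched by gene identifier through the array's annotation, in which 692 probes have 1 gene, 870 have several and 1877 are not listed; names follow RefSeq (TAIR10.1), in which 690 of the 692 matched. The medians of positive values per array spanned 1.90 log2 units, above the limit of 0.2 set for quantile normalization, which was therefore applied. A floor was set at the 1st percentile of positive intensities, 0.0152, before log2 was taken, and probes above this floor on at least 6 of 12 arrays were tested (2961 kept, 477 left out) with limma 3.58.1 in R 4.3.3, lmFit and eBayes, two-sided, Benjamini-Hochberg adjusted. The 1 gene with a pair of probes was averaged. The number of arrays limits the precision.

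Of the genes with a single-gene probe, the text names LAS, list members with a single-gene probe, the 5 most and 3 least correlated with LAS over 12 samples, the 5 most correlated in deviations from age means, and the 3 next above and below it in log2 difference; the genes above the floor with a larger difference, and AT1G10310 in the rank comparison, were singled out after their values were seen. The gene and the lists were chosen with earlier results of these data known. Deviations from age means correlated at r = 0.157 to 0.443, across genes, between the 6 pairs of samples of the same number. By the rule used here (above 0.1 in each) the samples thus count as paired by number, whose meaning the labels do not give. The main limma fit did not use this pairing, so its counts, SEs and p-values are unpaired. Values with the number as a block are given below as an alternative.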

Additional observations from a re-analysis of the deposited data

Results flagged for a closer look

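Dixon's test singled out an extreme sample in 2 of 40 sets of 6 values, and by chance about 1 set in 20 would be. Neither was LAS. PRK was lowest in 4-week sample 3, at a normalized log2 intensity of -0.78, with the next sample at -0.54 and the highest at -0.40. AT3G27550, one of the genes most like LAS within an age, was lowest in 2-week sample 6, at -3.90, with the next sample at -2.63 and the highest at -2.14.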

How the results depend on the processing

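The log2 difference of LAS, 3.0, was positive under all 13 alternatives run, though many of these could not change its sign. It was 4.45 in the deposited values without normalization, where 2245 probes were called higher and 327 lower, against 994 and 920; the cause was not tested. Under median centring it was 2.75. The floor at the 5th percentile, no filter on low values and leaving out the dimmest 25% do not touch the LAS values themselves. Taking the replicate number as a block, or averaging adjacent numbers, cannot change the LAS difference either, only its SE. Leaving out each replicate number from both ages gave 2.93 to 3.08, with 918 to 951 probes called higher and 859 to 900 lower. The sign for LAS was fixed there, since all its 4-week values lay above all its 2-week values. With the replicate number as a block the SE of LAS was 0.12 and 1041 probes were called higher and 987 lower. PSAN and PRK were still called lower with the block, at limma adjusted p-values of 2.62e-05 and 1.10e-06. With adjacent numbers averaged, 3 against 3, the SE was 0.19 and 751 were called higher and 756 lower. Ranked among probes above 0 only, LAS lay above 94.2% at 4 weeks and 36.7% at 2 weeks. None of the 6 lists that make up the 100 loci held a tested member besides LAS, so the alternatives gave no value for these lists. Signal over background is not known for these intensities, so how far the 2-week level of LAS lies above background is not known either.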

Other observations

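Probe numbers next to that of LAS were compared after the LAS values were seen. The 4 probes numbered 4051, 4052, 4054 and 4055, which have no single gene in the annotation, were each set against their own level at the other age in the deposited values. Probe 4054 had 0.480 to 0.786 in the 4-week samples against 0.0620 to 0.194 in the 2-week samples, and probe 4055 had 0.672 to 0.702 in the 4-week samples against 0.0694 to 0.180 in the 2-week samples. Both were higher at 4 weeks without overlap, as LAS was. In the deposited values limma called 75.7% of all tested probes higher at 4 weeks, so this does not set the 2 probes apart. The ranges of probe 4051 were 0.0983 to 0.147 at 4 weeks and 0.0310 to 0.225 at 2 weeks, and those of probe 4052 were 0.293 to 0.470 at 4 weeks and 0.163 to 0.325 at 2 weeks, so the ages overlapped for both. Their part in the LAS difference was not tested. No source used here says whether a probe number stands for a position on the array. Of the 40 protein-coding genes nearest to LAS on chromosome 1 by RefSeq order, 20 on each side, 1 had a single-gene probe, AT1G55440.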
